A study of Mus musculus with 12 samples.

Results

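The 43 genes described here encode the machinery of DNA replication and of entry into S phase, and were followed by name among 54356 genes with read estimates. RNA came from C57BL/6 mouse astrocyte cultures of midbrain and cortex, in 6 groups of 2 libraries each. In each region the groups were astrocytes given an shRNA against PTB and kept for 2 weeks in neuronal differentiation medium, the same kept for 4 weeks, and mock astrocytes in growth medium. PTB is the RNA-binding protein encoded by Ptbp1, and the study asked how expression changes when astrocytes depleted of it are driven towards neurons. Hairpin and medium changed together, so their contributions cannot be told apart, and the labels do not say how the hairpin was delivered, how long mock cultures were kept, or whether the 2 libraries of a group came from separate cultures or animals. The p-values therefore measure the spread between these libraries, which may be technical.

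Replication is prepared in G1, when the origin recognition complex with CDC6 and CDT1 loads the MCM helicase onto origins, a step called licensing. At the start of S phase the CDC7-DBF4 kinase and cyclin E with its partner kinase switch the helicase on by recruiting CDC45 and the GINS complex, and primase, the replicative polymerases, the PCNA clamp and its RFC loader follow. E2F transcription factors activate most of these genes around the G1/S boundary, and cells that have left the cycle keep them repressed. Cultured astrocytes from young brain divide, whereas neurons do not.

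Promoter sequences are shown first because the E2F word is one feature that part of the set shares outside the RNA measurements. The words TTTCCCGC, TTTGGCGC, TTTCGCGC and TTTGCCGC were searched on both strands of RefSeq windows that run from 250 bases before to 50 bases after a transcript start (build GRCm38.p6). Windows were found for 35 of the 43 genes, 41 windows in all, and 14 windows of 14 genes held an E2F word, which is 34.1% of these windows against 2.26% of 32851 mouse windows of the same length. A plain word match is a description and not a shown binding site. The bases just upstream of the start are printed for Mcm6 and Mcm5, whose words overlap on opposite strands, for Cdc6 and Pola1, which hold a word but whose summed reads were called in no comparison with mock, and for Rfc3 and Gins3, whose word lies close to the start. Each runs 5′ to 3′ on the gene's strand, with the E2F words in capitals (8-base words, or 1 longer run where they overlap), and ends at the base before the start. The start is that of the RefSeq window. By the annotation used for the read counts, Cdc6 starts at 98907801 and Gins3 at 95633453, so their stretches lie inside the gene. Rfc3 starts at 151651242 by that annotation, within its stretch.
Mcm6, chr1:128359706-128359865, minus strand: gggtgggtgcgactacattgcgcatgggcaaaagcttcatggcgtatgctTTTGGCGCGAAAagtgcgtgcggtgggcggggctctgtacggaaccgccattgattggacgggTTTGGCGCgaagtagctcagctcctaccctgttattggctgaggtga
Mcm5, chr8:75109349-75109508, plus strand: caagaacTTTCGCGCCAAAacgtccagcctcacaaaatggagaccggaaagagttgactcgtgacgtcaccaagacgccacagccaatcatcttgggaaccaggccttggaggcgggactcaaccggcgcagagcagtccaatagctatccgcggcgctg
Cdc6, chr11:98907991-98908150, plus strand: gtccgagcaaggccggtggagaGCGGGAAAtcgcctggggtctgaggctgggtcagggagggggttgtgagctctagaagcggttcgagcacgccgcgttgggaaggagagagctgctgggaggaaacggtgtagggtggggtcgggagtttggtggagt
Pola1, chrX:93632156-93632315, minus strand: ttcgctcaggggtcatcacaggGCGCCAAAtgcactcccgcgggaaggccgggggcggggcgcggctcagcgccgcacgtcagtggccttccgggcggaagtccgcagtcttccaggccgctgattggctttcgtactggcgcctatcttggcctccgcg
Rfc3, chr5:151651209-151651268, minus strand: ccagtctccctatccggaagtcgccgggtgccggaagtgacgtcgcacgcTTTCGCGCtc
Gins3, chr8:95633499-95633558, plus strand: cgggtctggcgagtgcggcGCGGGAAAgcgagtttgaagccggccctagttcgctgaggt

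Mcm6 held 3 words and Mcm5, Mcm3, Mcm7 and Rfc3 held 2 each, while the other 9 genes held 1. The word TTTGAA, the core of the cell cycle homology region bound by the DREAM repressor, was in 17.1% of the windows of the set and in 17.9% of all windows. The word CCAAT was in 51.2% and 37.4%. Of the 14 genes with an E2F word 12 were tested for expression. No window was found for Mcm4, Gins1, Gins2, Gins4, Prim2, Pole, Rfc2 and Ccne2.

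**Figure D1:**
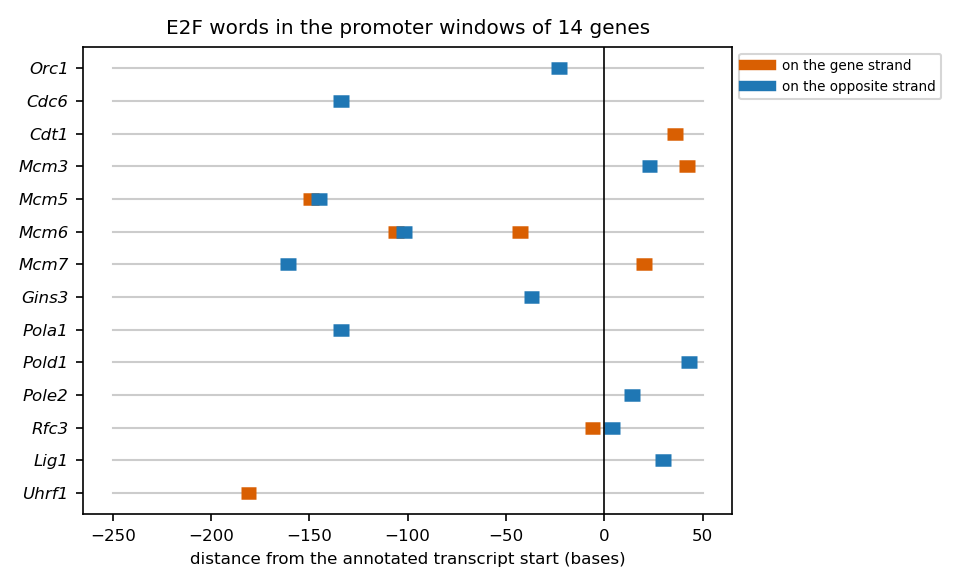
Positions of E2F words in the RefSeq promoter windows of the 14 genes that held one, as distance in bases from the annotated transcript start; orange marks the gene's strand and blue the opposite strand. The words of Mcm5 and Mcm6 overlap in pairs, and those of Orc1, Gins3 and Rfc3 lie nearest upstream of the start.

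Libraries held 6022098 to 7958229 reads in cortex shPTB, 8843602 to 9527843 in midbrain shPTB and 10197614 to 11385761 in mock cultures. Ptbp1, the target, had 105 and 90.8 CPM (read counts scaled to a common library size, with sizes adjusted by trimmed means) at 2 weeks and 169 and 155 CPM at 4 weeks in midbrain, against 208 and 250 CPM in mock, and in cortex it had 73.0 and 73.5 CPM and 89.2 and 90.5 CPM, against 173 and 251 CPM. All 8 shPTB libraries lay below the mock libraries of their region, although the log2 fold change of midbrain at 4 weeks, -0.50 ± 0.20, had an adjusted p of 0.0744. Mitochondrial genes took 36.4 to 48.3% of the reads in shPTB libraries and 16.9 to 22.7% in mock libraries. The 2 mock libraries of a region stood further apart than replicates elsewhere: over genes of the set with 20 or more reads, their median absolute log2 ratio was 0.55 in midbrain and 0.73 in cortex, against 0.13 to 0.20 in the shPTB groups. Summed levels of 10 astrocyte markers were 8475 to 11400 CPM in midbrain shPTB and 15600 to 16250 CPM in cortex shPTB, against 11580 to 15180 CPM and 13350 to 22660 CPM in mock, with every marker detected in every group. Single astrocyte markers went both ways. In midbrain at 2 and 4 weeks and cortex at 2 and 4 weeks, 2, 4, 2 and 4 were called lower than in mock. In the same order 2, 3, 4 and 4 were called higher (edgeR test given below).

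Genes of the set were called lower than in mock in shPTB cultures of both regions at both times, and none was called higher. Of 43 genes 40 passed the filter on low counts, and 17 were called lower at 2 weeks and 22 at 4 weeks in midbrain, and 23 at 2 weeks and 23 at 4 weeks in cortex (edgeR quasi-likelihood test, Benjamini-Hochberg adjusted p under 0.05 over 14607 genes). Among all genes tested, 14.7%, 20.4%, 17.6% and 20.9% were called lower in the same order, and 15.9%, 18.7%, 17.5% and 18.5% higher. The median log2 fold change of the 40 genes was -1.63, -1.81, -2.03 and -2.05 (-1.60, -1.81, -2.03 and -1.84 with genes at 0 reads set to their bounds), while that of all genes was -0.07, -0.15, -0.11 and -0.12. Many of these genes passed the filter only through their mock libraries, so these counts and medians describe the set and do not test it. Scaled to total reads instead, 35, 37, 36 and 38 of the 40 were called lower, beside 38.8%, 49.6%, 41.8% and 57.1% of all genes, whose median then lay at -0.74, -1.01, -0.85 and -1.21. Without 1 shPTB library the counts dropped most in midbrain at 2 weeks, to 11 without library 1 and 10 without library 2, and in cortex to 14 at 2 weeks and 15 at 4 weeks without library 2. Orc1, Cdc7 and Pole2 were too low to test, and 21 of the 43 genes reached 10 reads in both libraries of at least 1 shPTB group.

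Both shPTB libraries lay below both mock libraries for 34 and 40 of the 43 genes in midbrain at 2 and 4 weeks, and for 39 and 38 in cortex, where the shares among all genes were 34.0%, 37.8%, 34.9% and 36.4%. For 31 genes this held in all 4 comparisons, as it did for 20.3% of all genes tested. Calls in all 4 were made for 16 genes, beside 9.34% of all genes: Cdt1, Mcm2, Mcm3, Mcm5, Mcm6, Mcm7, Mcm10, Cdc45, Pold1, Pole, Rfc3, Lig1, Rrm2, Tyms, Tk1 and Uhrf1. No lower call was made in any of the 4 for 12 tested genes, beside 69.9% of all genes: Cdc6, Gins4, Pola1, Prim1, Pcna, Rfc2, Rfc4, Rfc5, Rpa2, Dut, Ccne1 and Ccne2. The 2 times of a region share their mock libraries, so they are not independent of each other. Nor are the regions, since mock libraries of the same number deviated from their group means together (correlation 0.859 between midbrain and cortex mock over 7551 genes). In bulk RNA, fewer cycling cells and less of these RNAs per cell cannot be told apart.

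Markers of other cells moved in the same comparisons, for which the shares of all genes called lower and higher are given above. The 12 microglia markers summed to 64.2 to 66.7 CPM at 2 weeks and 25.4 to 27.9 CPM at 4 weeks in midbrain shPTB, against 1510 and 1936 CPM in mock, and to 111 to 113 CPM and 40.9 to 42.5 CPM in cortex shPTB, against 1390 and 2030 CPM. Of the 12 markers 11 were called lower in each comparison and 1 higher in midbrain at 2 weeks, and Itgam and Ctss had no read in midbrain at 4 weeks, while none of the 12 was at 0 in the other groups. The 10 fibroblast and mural markers summed to 245 to 340 CPM in midbrain shPTB and 51.1 to 120.2 CPM in cortex shPTB, against 2103 to 2214 CPM and 826 to 852 CPM in mock, with Col3a1 and Kcnj8 at 0 in cortex at 4 weeks, and 4, 5, 5 and 5 were called lower and 4, 4, 4 and 2 higher. The 8 ependymal markers summed to 79.0 to 96.9 CPM and 19.8 to 28.8 CPM in midbrain and cortex shPTB, against 222 to 271 CPM and 204 to 279 CPM in mock. Of the 8 ependymal markers 6, 6, 7 and 7 were called lower and 1, 1, 0 and 0 higher. The 10 neuron markers summed to 57.7 to 112 CPM in midbrain shPTB, against 160.2 and 185 CPM in mock, and to 79.0 to 133 CPM in cortex shPTB, against 195 and 255 CPM in mock, with 3, 6, 3 and 4 of 9 tested lower and 1, 1, 4 and 1 higher. The 10 oligodendrocyte lineage markers summed to 206 to 226 CPM in cortex shPTB, against 51.4 and 53.4 CPM in mock, and to 46.7 to 57.7 CPM in midbrain shPTB, against 45.5 and 55.1 CPM in mock, while the 8 endothelial markers summed to 2.301 to 10.5 CPM in shPTB libraries and 7.27 to 24.2 CPM in mock libraries, with Tek at 0 in all groups. Oligodendrocyte markers were called lower in 2, 2, 2 and 2 and higher in 5, 2, 6 and 5 of 9, and endothelial markers lower in 2, 2, 0 and 4 and higher in 2, 0, 0 and 0 of 5. The part of these cells in the fall of the replication genes was not tested.

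**Figure D2:**
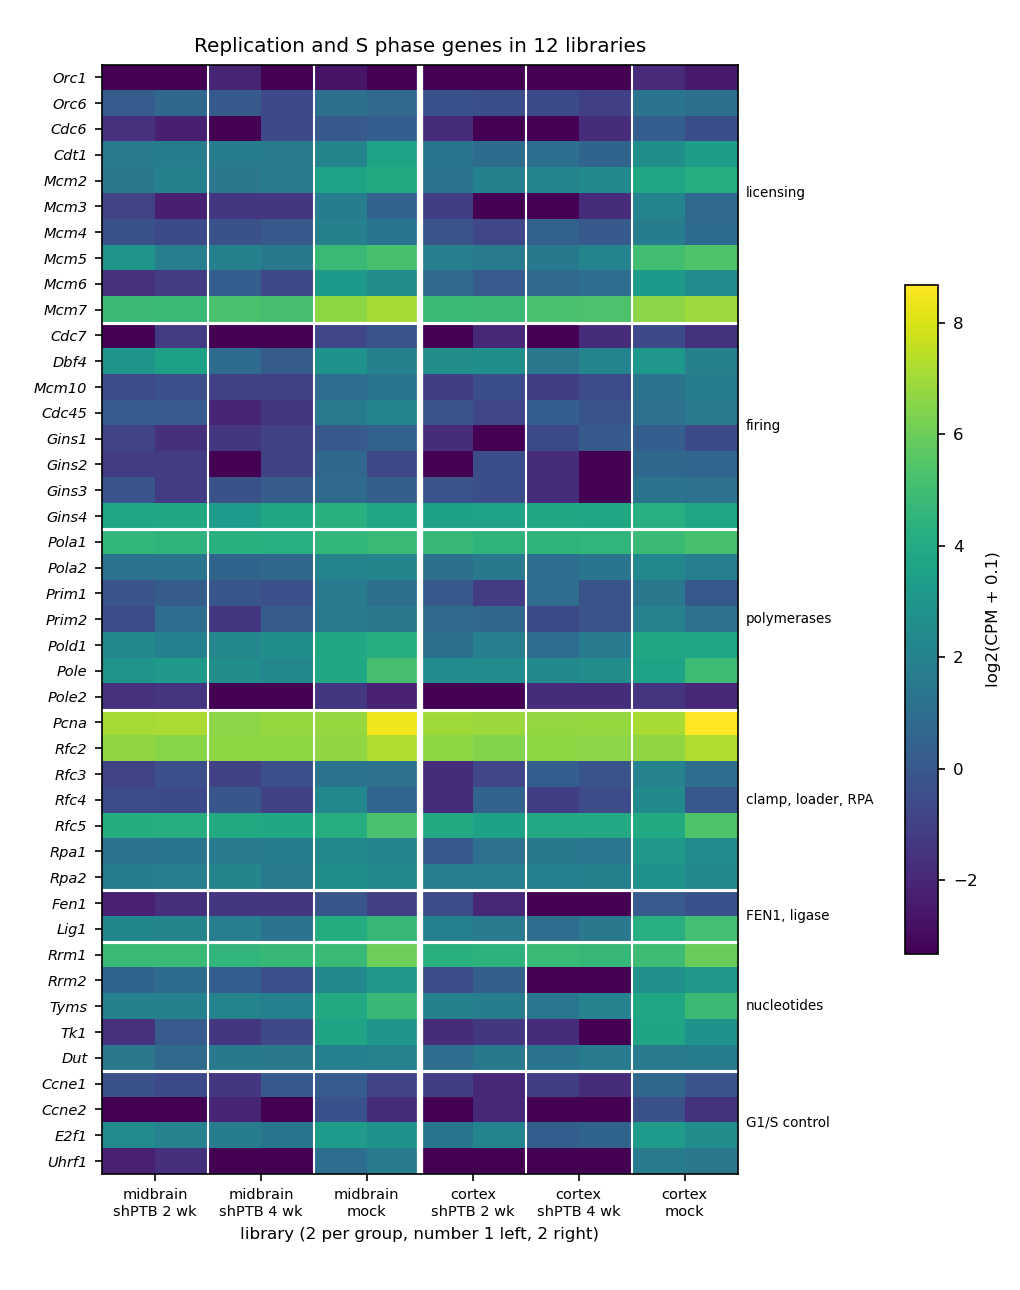
Levels of the 43 genes in the 12 libraries as log2(CPM + 0.1), grouped by role from licensing at the top to G1/S control at the bottom, with shPTB at 2 and 4 weeks left of mock in each region. Most rows are darker in shPTB than in mock libraries, and Pcna and Rfc2 stay bright throughout.

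Licensing genes were called most often: 7, 8, 8 and 7 of the 9 tested were lower in midbrain at 2 and 4 weeks and in cortex at 2 and 4 weeks. Mcm7 (chr5:138164583-138172422, minus strand), a helicase subunit, had the highest mean CPM of the role. In midbrain it had 28.6 and 26.7 CPM at 2 weeks and 38.0 and 35.1 CPM at 4 weeks, against 101 and 132 CPM in mock. In cortex it had 28.4 and 29.4 CPM at 2 weeks and 37.0 and 40.7 CPM at 4 weeks, against 95.9 and 120.5 CPM in mock. Every shPTB library lay far below both mock libraries of its region, and the log2 fold changes were -2.07 ± 0.19 and -1.67 ± 0.19 in midbrain and -1.90 ± 0.20 and -1.48 ± 0.19 in cortex (± SE, adjusted p 2.34e-05 to 0.000155).

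Mcm5, another subunit of the ring, had, in midbrain, 7.36 and 3.42 CPM at 2 weeks and 3.59 and 2.81 CPM at 4 weeks, against 26.7 and 36.0 CPM in mock. In cortex its levels were 3.37 and 3.08 CPM at 2 weeks and 2.75 and 4.04 CPM at 4 weeks, against 33.1 and 41.3 CPM in mock. The groups were far apart in both regions, with log2 fold changes of -2.54 ± 0.33, -3.29 ± 0.35, -3.52 ± 0.36 and -3.45 ± 0.36 in the same order (adjusted p at most 0.000206). Mcm6, which sits between Mcm2 and Mcm4 in the ring, had, in midbrain, 0.226 and 0.331 CPM at 2 weeks and 1.10 and 0.536 CPM at 4 weeks, against 9.22 and 5.71 CPM in mock. Cortex Mcm6 stood at 1.69 and 0.974 CPM at 2 weeks and 1.65 and 1.92 CPM at 4 weeks, against 9.30 and 5.57 CPM in mock. Its change was -4.68 ± 0.53 on the log2 scale in midbrain at 2 weeks and -2.06 ± 0.44 in cortex at 4 weeks, and the region difference of the response at 2 weeks, -2.19 ± 0.76, had an adjusted p of 0.334.

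Mcm2 averaged 3.11 and 2.85 CPM in midbrain shPTB at 2 and 4 weeks, against 14.1 CPM in mock, and 2.99 and 4.70 CPM in cortex shPTB, against 15.5 CPM in mock, and was called in all 4 comparisons. Mcm3 was called in all 4 as well, but in cortex shPTB it rested on 2 reads at 2 weeks and 1 read at 4 weeks, against 90 in mock, which makes it 17.4-fold lower with a 95% interval of 4.67 to 146 and 32.2-fold lower with a 95% interval of 5.64 to 1287. Each of the midbrain calls of Mcm3 was lost in 5 of 23 alternatives. Among these were fits without mock library 1 or without either shPTB library compared, and protein-coding models (adjusted p 0.116 at 2 weeks and 0.124 at 4 weeks). Midbrain mock libraries had 3.15 and 1.28 CPM of Mcm3. Mcm4 was called in 3, with -1.18 ± 0.49 in cortex at 4 weeks (adjusted p 0.0790). Cdt1, the loader that geminin holds in check, was called in all 4 at -1.42 to -2.29, but in none on protein-coding models (adjusted p 0.1001 to 0.633). Its call in midbrain was lost in 13 of 23 alternatives at 2 weeks and in 7 at 4 weeks, both times without mock library 2 or either shPTB library compared. Its midbrain mock libraries had 4.34 and 12.2 CPM and its cortex mock libraries 6.22 and 10.4 CPM. Parts of the 3′ ends of some called genes also occur in other genes, by the shared 3′ words defined further on. Among genes called in all 4 the share was largest for Mcm7 (43.8%, the most in Gm5487, which had 0 reads). It was 21.3% for Mcm2 (the most in Uba1, 42302 reads against 1108 for Mcm2). For Mcm5 it was 14.9% (the most in Srpk1, 2736 reads against 2358), and for the others 0 to 7.87%. How these shares affected the read counts was not tested.

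Cdc6, the ATPase that recruits CDT1 and the helicase, was called in no comparison. It had, in midbrain, 0.226 and 0.110 CPM at 2 weeks and 0 and 0.536 CPM at 4 weeks, against 0.922 and 1.09 CPM in mock. Cortex cultures had 0.187 and 0 CPM at 2 weeks and 0 and 0.192 CPM at 4 weeks, against 1.10 and 0.636 CPM in mock. All 8 shPTB libraries lay below the mock libraries of their region, and with 1 to 3 reads per shPTB group at 2 weeks and in cortex at 4 weeks it was 5.96-fold lower with a 95% interval of 1.88 to 30.4 in midbrain at 2 weeks and 9.67-fold lower with a 95% interval of 1.59 to 396 in cortex at 4 weeks; adjusted p values ran between 0.0838 and 0.159. Orc6, a subunit of the origin recognition complex, was called in 3 comparisons and not in midbrain at 2 weeks (-0.54 ± 0.42, adjusted p 0.358). Its call in midbrain at 4 weeks was lost in 18 of 22 alternatives, among them leaving out any 1 of the 12 libraries and DESeq2 (adjusted p up to 0.295). That in cortex at 2 weeks was lost in 8 of 22, among them without mock library 1 or either shPTB library compared (up to 0.133). Orc1, the complex's largest subunit, had 6 reads in all 12 libraries and was not tested.

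Firing factors were called in 2, 3, 4 and 4 of 7 tested genes. Mcm10 and Cdc45, which bind and complete the active helicase, were called in all 4 comparisons, at -1.78 to -2.55 for Mcm10, and at -1.45 to -2.05 for Cdc45 outside midbrain at 4 weeks. There Cdc45 had 3 reads, against 117 in mock, and was 16.9-fold lower with a 95% interval of 5.63 to 83.0. All 4 Mcm10 calls were lost with a transcript length offset (adjusted p up to 0.382). The one in midbrain at 2 weeks was also lost with DESeq2 and without either shPTB library compared. The Cdc45 call in cortex at 4 weeks was lost in 6 of 22 alternatives, among them DESeq2 (adjusted p up to 0.159). At 2 weeks its calls were lost in 1 of 22 in cortex and 2 of 22 in midbrain. Gins4, a GINS subunit with the most reads of the role (chr8:23226616-23237659, minus strand), had, in midbrain, 13.2 and 13.9 CPM at 2 weeks and 9.95 and 13.9 CPM at 4 weeks, against 19.3 and 13.5 CPM in mock. Its cortex levels were 11.4 and 11.8 CPM at 2 weeks and 14.5 and 13.1 CPM at 4 weeks, against 18.4 and 13.6 CPM in mock. Groups overlapped in 3 comparisons, in cortex at 2 weeks both shPTB libraries lay below mock, and the log2 fold changes ran between -0.46 ± 0.25 and -0.22 ± 0.25 with none called (adjusted p 0.162 to 0.513 over the 4 comparisons).

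The other GINS subunits were low. Gins1 had, in midbrain, 0.453 and 0.221 CPM at 2 weeks and 0.276 and 0.402 CPM at 4 weeks, against 0.922 and 1.22 CPM in mock. The cortex values were 0.187 and 0 CPM at 2 weeks and 0.549 and 0.961 CPM at 4 weeks, against 1.10 and 0.557 CPM in mock. Its call was in cortex at 2 weeks, where the group held 1 read, against 26 in mock (10.04-fold lower with a 95% interval of 1.65 to 412), and shPTB and mock overlapped in cortex at 4 weeks. The call was lost in 14 of 21 alternatives, among them DESeq2 and leaving out any 1 library but cortex mock library 2 (adjusted p up to 0.239).

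Gins2 had, in midbrain, 0.340 and 0.331 CPM at 2 weeks and 0 and 0.419 CPM at 4 weeks, against 1.54 and 0.514 CPM in mock. Cortex libraries gave it 0 and 0.649 CPM at 2 weeks and 0.183 and 0 CPM at 4 weeks, against 1.54 and 1.43 CPM in mock. The one call was in cortex at 4 weeks with 1 read, against 44 in mock (15.8-fold lower with a 95% interval of 2.68 to 636), and the last 500 bases of its transcripts share all of their 31-base words with Gse1, so its reads cannot be placed with certainty. That call was lost in 8 of 21 alternatives, among them leaving out any 1 of the 4 libraries compared.

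Gins3 had, in midbrain, 0.792 and 0.331 CPM at 2 weeks and 0.691 and 1.07 CPM at 4 weeks, against 1.68 and 1.16 CPM in mock. In cortex it stood at 0.749 and 0.649 CPM at 2 weeks and 0.183 and 0 CPM at 4 weeks, against 2.38 and 2.23 CPM in mock. Its calls were in cortex, at -1.71 ± 0.59 at 2 weeks (adjusted p 0.0430) and 24.7-fold lower with a 95% interval of 4.29 to 989.8 at 4 weeks, and the region difference of the response at 4 weeks had an adjusted p of 0.124. The 2-week call was lost in 10 of 22 alternatives, among them DESeq2 and leaving out any 1 of the 4 libraries compared. Cdc7, the kinase that fires origins, had 38 reads in all and was not tested.

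Dbf4, the activating subunit of the CDC7 kinase, was called between the times in midbrain on its summed reads but not on protein-coding models. In midbrain it had 7.75 and 11.1 CPM at 2 weeks and 1.73 and 1.05 CPM at 4 weeks, against 7.06 and 3.72 CPM in mock. Cortex libraries had 6.04 and 6.23 CPM at 2 weeks and 2.59 and 4.22 CPM at 4 weeks, against 8.23 and 3.62 CPM in mock. Both midbrain libraries at 2 weeks lay above both mock libraries (0.80 ± 0.42, adjusted p 0.167), both at 4 weeks lay below (-1.98 ± 0.51, adjusted p 0.0109), and groups overlapped in cortex. Midbrain cultures at 4 weeks were also called below those at 2 weeks, at -2.78 ± 0.51 on the log2 scale (adjusted p 0.0207), the single call of the set between the 2 times, which was lost without any 1 of the 4 midbrain shPTB libraries (adjusted p 0.0889 to 0.210). On protein-coding models it was -1.18 (adjusted p 0.800).

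Polymerase and primase genes were called in 2, 4, 2 and 3 of 6 tested genes. Pold1, the catalytic subunit of polymerase delta, and Pole, that of polymerase epsilon, were called in all 4, at -1.56 to -2.48 and -1.62 to -2.20. On protein-coding models Pold1 was not called at 4 weeks (adjusted p 0.0663 in midbrain and 0.0525 in cortex). With a transcript length offset both of its midbrain calls were lost. Pole was called on coding models only in midbrain at 4 weeks (adjusted p 0.0426, elsewhere 0.0532 to 0.132). Its other calls were lost in 3 to 5 of 23 alternatives. Pole differed between mock libraries, with 14.6 and 34.98 CPM in midbrain and 12.5 and 30.3 CPM in cortex. Pole2, an epsilon subunit, had 20 reads in all and was not tested.

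Pola1, the catalytic subunit of polymerase alpha and the role's leader by reads (chrX:93304767-93632155, minus strand), had, in midbrain, 24.7 and 22.2 CPM at 2 weeks and 19.8 and 18.8 CPM at 4 weeks, against 24.2 and 26.8 CPM in mock. In cortex it had 25.4 and 22.6 CPM at 2 weeks and 22.4 and 24.1 CPM at 4 weeks, against 28.6 and 36.9 CPM in mock. Its groups overlapped in midbrain at 2 weeks and lay close together elsewhere, with log2 fold changes between -0.49 ± 0.19 and -0.12 ± 0.18 (adjusted p 0.0555 to 0.640). Most of its reads fell on a model that is not protein-coding, as described further on.

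Pola2, the regulatory subunit, had, in midbrain, 2.299 and 2.39 CPM at 2 weeks and 1.38 and 1.51 CPM at 4 weeks, against 3.99 and 4.30 CPM in mock. Its cortex levels were 2.09 and 2.83 CPM at 2 weeks and 1.93 and 2.47 CPM at 4 weeks, against 4.69 and 3.38 CPM in mock. It was called in midbrain at 4 weeks (-1.53 ± 0.33, adjusted p 0.00416), and the other 3 comparisons gave -0.74 to -0.84 without overlap of the groups (adjusted p 0.0610 to 0.0965).

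Prim1, the catalytic primase, had, in midbrain, 0.800 and 1.08 CPM at 2 weeks and 0.834 and 0.670 CPM at 4 weeks, against 3.09 and 2.08 CPM in mock. Cortex cultures had 0.937 and 0.325 CPM at 2 weeks and 1.83 and 0.769 CPM at 4 weeks, against 2.67 and 0.875 CPM in mock. It was called in none (adjusted p 0.0517 to 0.600), and in cortex the mock library numbered 2 lay inside the range of the shPTB libraries at both times.

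Prim2, its partner, had, in midbrain, 0.566 and 1.88 CPM at 2 weeks and 0.276 and 1.07 CPM at 4 weeks, against 3.13 and 2.62 CPM in mock. Cortex cultures had 1.69 and 1.46 CPM at 2 weeks and 0.549 and 0.774 CPM at 4 weeks, against 3.95 and 2.15 CPM in mock. The shPTB libraries lay below mock in both regions, and the fall passed the test at 4 weeks, at -2.07 ± 0.64 in midbrain and -2.21 ± 0.69 in cortex (adjusted p 0.0250 and 0.0251). The difference between the times did not pass the test (4 weeks against 2 weeks -0.84 ± 0.71 in midbrain and -1.24 ± 0.78 in cortex, adjusted p 0.592 and 0.515).

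**Figure D3:**
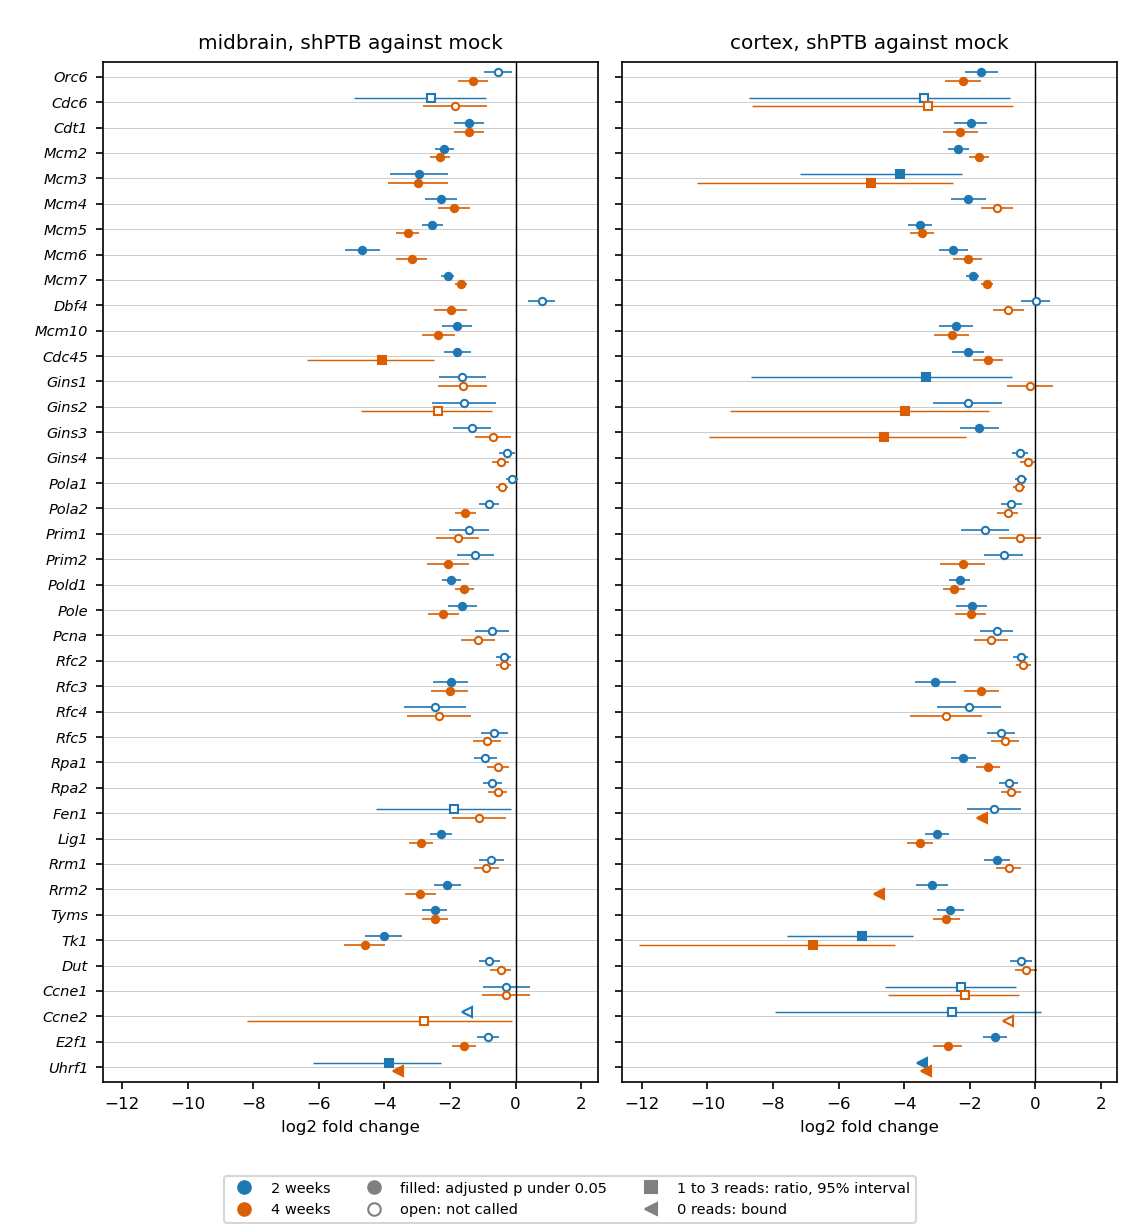
Log2 fold changes of the 40 tested genes in shPTB cultures against mock at 2 weeks (blue) and 4 weeks (orange), midbrain left and cortex right, with standard errors; squares are read ratios with exact 95% intervals for groups of 1 to 3 reads and triangles bounds for groups of 0 reads. Filled symbols passed the adjusted threshold, and all of them lie left of 0, including Mcm7 at -2.07 in midbrain at 2 weeks.

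Clamp, clamp loader and RPA genes were called least, in 1, 1, 2 and 2 of 7. Rfc3, a loader subunit, was called in all 4 at -1.65 to -3.05, but only the call in cortex at 2 weeks was kept in all 21 alternatives. The call in cortex at 4 weeks was lost in 7 of 21, among them DESeq2 and without mock library 1 or either shPTB library compared. Those in midbrain were lost in 4 at 2 weeks and 3 at 4 weeks, among them DESeq2 and without either shPTB library compared. Pcna, the sliding clamp (chr2:132249162-132253314, minus strand), had, in midbrain, 134 and 144 CPM at 2 weeks and 96.2 and 109 CPM at 4 weeks, against 110.1 and 346 CPM in mock. Its cortex levels were 124 and 118 CPM at 2 weeks and 105 and 111 CPM at 4 weeks, against 137 and 410.5 CPM in mock. The mock library numbered 2 stood far above all others in each region, and library 1 was close to the shPTB libraries. Its log2 fold changes were -0.72 ± 0.51, -1.15 ± 0.51, -1.18 ± 0.51 and -1.34 ± 0.51, and none was called (adjusted p 0.0581 to 0.303).

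Rfc2, a small loader subunit, had, in midbrain, 104 and 94.9 CPM at 2 weeks and 99.5 and 100.5 CPM at 4 weeks, against 104 and 152 CPM in mock. The cortex values were 98.7 and 88.7 CPM at 2 weeks and 99.4 and 97.0 CPM at 4 weeks, against 103 and 151 CPM in mock. All shPTB libraries lay just below mock library 1, and mock library 2 stood well above it (-0.44 ± 0.23 to -0.36 ± 0.23, adjusted p 0.159 to 0.239).

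Rfc4 had, in midbrain, 0.566 and 0.552 CPM at 2 weeks and 0.829 and 0.402 CPM at 4 weeks, against 4.83 and 1.41 CPM in mock. Cortex libraries had 0.187 and 1.30 CPM at 2 weeks and 0.366 and 0.577 CPM at 4 weeks, against 5.34 and 0.875 CPM in mock. Its mean difference was large (-2.02 ± 0.98 to -2.72 ± 1.08) but its mock libraries differed more than 3-fold, groups overlapped in cortex at 2 weeks, and none of the comparisons was called (adjusted p 0.0674 to 0.130). Of its 3′ words 33.2% also occur in other genes, the most in Eif4a2.

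Rfc5 had, in midbrain, 16.99 and 17.9 CPM at 2 weeks and 15.8 and 13.98 CPM at 4 weeks, against 17.5 and 37.2 CPM in mock. In cortex it had 15.8 and 11.5 CPM at 2 weeks and 15.1 and 14.8 CPM at 4 weeks, against 15.7 and 40.8 CPM in mock. Mock library 1 of each region was close to the shPTB libraries, and no comparison was called (adjusted p 0.0851 to 0.264). Of the 3′ words of Rfc5 53.8% also occur in other genes, the most in Wsb2.

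Rpa1, the large subunit of the protein that coats single-stranded DNA, had, in midbrain, 2.26 and 2.43 CPM at 2 weeks and 2.90 and 3.21 CPM at 4 weeks, against 4.72 and 4.17 CPM in mock. Cortex cultures had 0.936 and 2.11 CPM at 2 weeks and 2.75 and 2.498 CPM at 4 weeks, against 8.599 and 5.65 CPM in mock. The groups did not overlap anywhere, and it was called in cortex at both times (-2.20 ± 0.38 and -1.44 ± 0.35, adjusted p 0.00120 and 0.00791). Midbrain gave -0.92 ± 0.34 and -0.54 ± 0.34 (adjusted p 0.0614 and 0.227), and the region difference of the response at 2 weeks had an adjusted p of 0.441.

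Rpa2, the middle subunit, had, in midbrain, 3.17 and 3.42 CPM at 2 weeks and 4.28 and 3.08 CPM at 4 weeks, against 6.13 and 4.62 CPM in mock. Its cortex levels were 3.37 and 3.41 CPM at 2 weeks and 3.48 and 3.65 CPM at 4 weeks, against 6.86 and 5.01 CPM in mock. Each shPTB library lay below its mock libraries by a modest amount (-0.81 ± 0.30 to -0.55 ± 0.29, adjusted p 0.0543 to 0.151, not called).

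The ligase and flap nuclease of the lagging strand were called in 1, 1, 1 and 2 of 2. Lig1, the ligase that seals Okazaki fragments (chr7:13277283-13311433, plus strand), had, in midbrain, 4.41 and 4.30 CPM at 2 weeks and 3.45 and 2.28 CPM at 4 weeks, against 17.2 and 25.0 CPM in mock. The cortex values were 3.56 and 2.92 CPM at 2 weeks and 1.83 and 2.69 CPM at 4 weeks, against 18.2 and 34.0 CPM in mock. No shPTB library came near mock, and the log2 fold changes were -2.27 ± 0.34, -2.88 ± 0.36, -3.01 ± 0.37 and -3.52 ± 0.39 (adjusted p at most 0.000569). Fen1, the flap nuclease, had, in midbrain, 0.113 and 0.221 CPM at 2 weeks and 0.276 and 0.268 CPM at 4 weeks, against 0.814 and 0.385 CPM in mock. Cortex libraries had 0.562 and 0.162 CPM at 2 weeks and 0 and 0 CPM at 4 weeks, against 0.988 and 0.716 CPM in mock. With 58 reads in all its one call was in cortex at 4 weeks (at least 3.10-fold lower), and 87.9% of its 3′ words also occur in other genes, the most in Gm10143.

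Nucleotide supply genes were called in 3, 3, 4 and 3 of 5. Tk1, thymidine kinase of S phase, had, in midbrain, 0.226 and 0.993 CPM at 2 weeks and 0.276 and 0.536 CPM at 4 weeks, against 12.6 and 7.70 CPM in mock. In cortex it had 0.187 and 0.290 CPM at 2 weeks and 0.183 and 0 CPM at 4 weeks, against 12.7 and 6.92 CPM in mock. Its levels in shPTB libraries were under 1 CPM throughout, and its log2 fold changes were -4.03 ± 0.57 and -4.601 ± 0.63 in midbrain, while it was 39.3-fold lower with a 95% interval of 13.3 to 192 and 109-fold lower with a 95% interval of 19.5 to 4328 in cortex. Tyms, thymidylate synthase, was called in all 4 at -2.46 to -2.72.

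Rrm2, the ribonucleotide reductase subunit that limits the enzyme in S phase, had, in midbrain, 1.36 and 1.77 CPM at 2 weeks and 1.10 and 0.669 CPM at 4 weeks, against 4.83 and 8.602 CPM in mock. Cortex cultures had 0.562 and 1.14 CPM at 2 weeks and 0 and 0 CPM at 4 weeks, against 6.68 and 8.83 CPM in mock. It fell by 2.09 ± 0.41 and 2.90 ± 0.46 on the log2 scale in midbrain, by 3.14 ± 0.48 in cortex at 2 weeks, and was at least 27.0-fold lower in cortex at 4 weeks. Midbrain at 4 weeks held 13 reads, against none in cortex, at least 3.14-fold higher (adjusted p 0.0343), the single call of the set between the regions, which was lost without any 1 library of the 4-week groups or of midbrain at 2 weeks.

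Rrm1, the large subunit (chr7:102441695-102469771, plus strand), led the role by CPM and had, in midbrain, 27.4 and 27.8 CPM at 2 weeks and 23.9 and 25.8 CPM at 4 weeks, against 27.5 and 64.9 CPM in mock. Its cortex levels were 19.7 and 21.3 CPM at 2 weeks and 27.1 and 25.2 CPM at 4 weeks, against 30.7 and 61.5 CPM in mock. In midbrain its 2-week libraries straddled mock library 1, and its call was in cortex at 2 weeks (-1.17 ± 0.39, adjusted p 0.0362; the other 3 comparisons had adjusted p 0.0828 to 0.154). That call was lost in 10 of 23 alternatives, among them without cortex mock library 2, without any 1 of the 8 shPTB libraries and on protein-coding models (adjusted p up to 0.225). Dut, the dUTPase, had, in midbrain, 2.60 and 1.66 CPM at 2 weeks and 2.76 and 2.68 CPM at 4 weeks, against 3.53 and 3.92 CPM in mock. The cortex values were 1.87 and 2.76 CPM at 2 weeks and 2.38 and 2.88 CPM at 4 weeks, against 3.02 and 3.34 CPM in mock. It lay below mock in every library pair, but no comparison was called (-0.80 ± 0.32 to -0.27 ± 0.34, adjusted p 0.0810 to 0.556).

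G1/S control genes were called in 1, 2, 2 and 2 of 4. E2f1, the activating transcription factor (chr2:154559407-154569892, minus strand), had, in midbrain, 5.42 and 3.86 CPM at 2 weeks and 3.18 and 2.41 CPM at 4 weeks, against 9.72 and 6.87 CPM in mock. Cortex libraries had 2.43 and 4.22 CPM at 2 weeks and 1.10 and 1.34 CPM at 4 weeks, against 9.78 and 5.89 CPM in mock. It was called in 3 comparisons, and cortex at 4 weeks showed the lowest libraries (-2.68 ± 0.44, adjusted p 0.000714), although cortex at 4 against 2 weeks had an adjusted p of 0.175. Uhrf1, which reads hemimethylated DNA for DNMT1, had no read in 3 of 4 shPTB groups, against 83 in midbrain mock and 85 in cortex mock, and was 14.6-fold lower with a 95% interval of 4.81 to 72.0 in midbrain at 2 weeks. It was at least 11.96-fold lower there at 4 weeks, and at least 10.9-fold lower and at least 10.15-fold lower in cortex at 2 and 4 weeks.

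Ccne1, a cyclin E, had, in midbrain, 0.679 and 0.552 CPM at 2 weeks and 0.276 and 0.937 CPM at 4 weeks, against 1.03 and 0.449 CPM in mock. In cortex it had 0.374 and 0.162 CPM at 2 weeks and 0.366 and 0.192 CPM at 4 weeks, against 1.57 and 0.796 CPM in mock. Groups overlapped in midbrain and not in cortex, where each shPTB group held 3 reads against 37 in mock (4.76-fold lower with a 95% interval of 1.51 to 24.1 and 4.42-fold lower with a 95% interval of 1.40 to 22.4), and none was called (adjusted p 0.0796 to 0.792). Ccne2, the other cyclin E, had 33 reads in all. It had, in midbrain, 0 and 0 CPM at 2 weeks and 0.138 and 0 CPM at 4 weeks, against 0.705 and 0.193 CPM in mock. Cortex cultures had 0 and 0.162 CPM at 2 weeks and 0 and 0 CPM at 4 weeks, against 0.697 and 0.239 CPM in mock. It was called in none (adjusted p 0.0750 to 0.266), and 80.9% of its 3′ words also occur in other genes, the most in Ints8.

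The kind of transcript that took the reads differed within the set. Of the reads on Pcna, 99.4% were assigned to Pcna-204, a model annotated as a retained intron, and of those on Rfc2 94.6% to Rfc2-204 of the same class. Pola1-202, a processed transcript, took 93.5% of the Pola1 reads, and Dbf4-206, likewise processed, took 84.4% of the Dbf4 reads. These 4 genes were called lower in at most 1 comparison with mock. The same held for Gins4, Rfc5, Rpa2, Rrm1 and Dut, where 99.1 to 100% of the reads were on protein-coding models, whereas Pold1, Mcm10 and Rfc3, called in all 4 comparisons, had 23.0%, 12.5% and 7.46% on such models. Salmon divides reads between models that share sequence, so the split within a gene is itself an estimate.

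On protein-coding models Pcna had 3 and 0 reads in midbrain libraries at 2 weeks and 0 and 0 at 4 weeks, against 35 and 23 in mock. Cortex libraries held 0 and 0 reads at 2 weeks and 3 and 0 at 4 weeks, against 33 and 17 in mock. Most of these few reads came from mock libraries. Coding reads of Pcna were at least 8.36-fold lower in midbrain at 4 weeks and at least 6.44-fold lower in cortex at 2 weeks, with adjusted p of 0.0210 and 0.0314 in a fit of protein-coding models alone, and 10.2-fold lower (95% interval 3.31 to 50.8) and 5.97-fold lower (1.93 to 29.9) in the other comparisons, which were not called (adjusted p 0.0751 and 0.133). Its other models had 96.2 to 144 CPM in shPTB libraries, against 108 to 409 CPM in mock.

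Pola1 had 1 and 5 coding reads in midbrain libraries at 2 weeks and 2 and 1 at 4 weeks, against 64 and 19 in mock. Cortex libraries held 7 and 0 at 2 weeks and 1 and 0 at 4 weeks, against 50 and 20 in mock. Every shPTB library was below mock, and cortex at 4 weeks was called (25.1-fold lower, 95% interval 4.35 to 1004, adjusted p 0.0426), the rest not (adjusted p 0.0526 to 0.233). Dbf4 had 2 and 1 coding reads at 2 weeks and 0 and 1 at 4 weeks in midbrain, against 17 and 27 in mock, and 0 and 0 and then 0 and 2 in cortex, against 33 and 7. On coding models every Dbf4 library of shPTB cultures was below mock, at 2 weeks too: midbrain at 4 weeks (19.0-fold lower, interval 3.24 to 768, adjusted p 0.0427) and cortex at 2 weeks (at least 5.15-fold lower, adjusted p 0.0320) were called, and midbrain at 2 weeks was not (7.72-fold lower, interval 2.47 to 38.9, adjusted p 0.0902), nor was cortex at 4 weeks (7.16-fold lower, interval 1.86 to 61.2, adjusted p 0.121).

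Rfc2 on coding models had 35 and 50 reads at 2 weeks and 24 and 32 at 4 weeks in midbrain, against 111 and 121 in mock, and 14 and 32 and then 23 and 41 in cortex, against 130 and 103. Scaled for depth, 1 cortex library at 4 weeks lay above 1 of mock. The log2 fold changes were -0.36 to -0.96 over both regions and none was called (adjusted p 0.0867 to 0.480). With protein-coding models alone for every gene, 35 genes of the set were tested and 12 and 17 were called lower in midbrain at 2 and 4 weeks and 18 and 18 in cortex, against 12.6%, 18.2%, 16.2% and 20.2% of all genes.

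**Figure D4:**
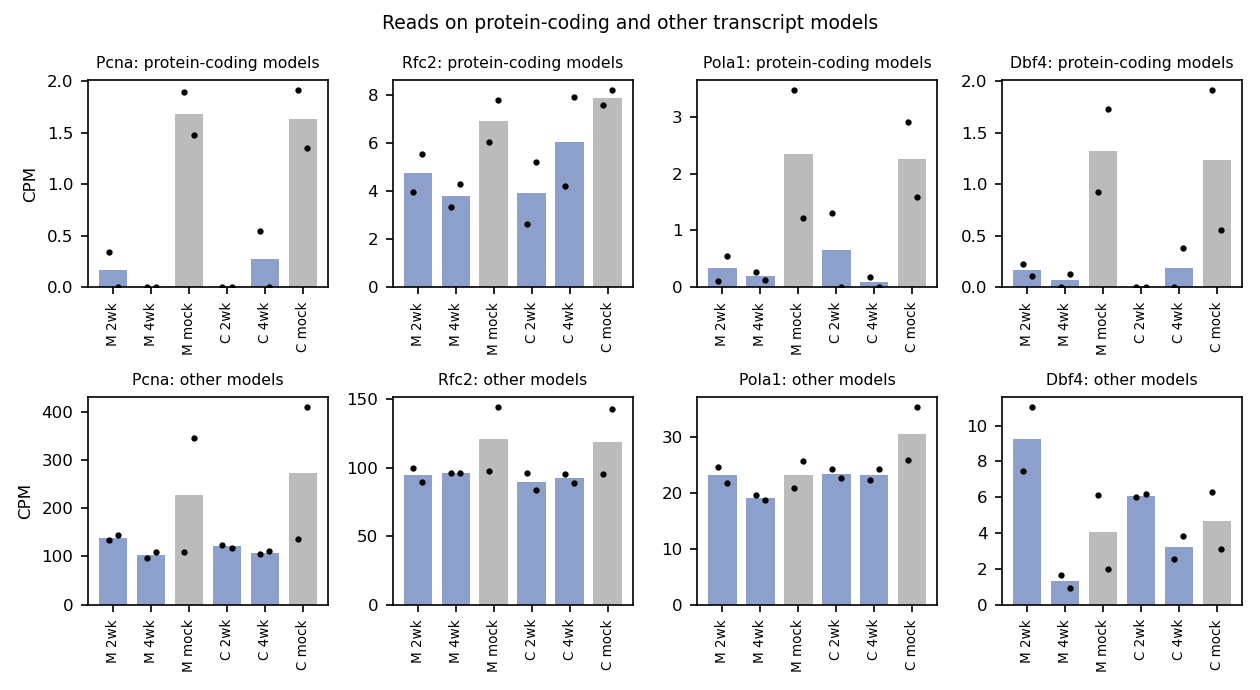
CPM of reads on protein-coding models (top row) and on all other models (bottom row) of Pcna, Rfc2, Pola1 and Dbf4, as group means (bars, blue for shPTB and grey for mock) and single libraries (points), with M for midbrain and C for cortex. Coding reads of Pcna, Pola1 and Dbf4 reach 1.31 CPM in shPTB libraries, in Pola1, and up to 3.47 CPM in mock, while the other models stay at 96.2 CPM or more for Pcna.

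Few genes of the set were called between times or regions. In midbrain at 4 against 2 weeks 1 gene, Dbf4, was called, beside 2.66% of all genes, and in cortex none was, beside 2.77%; at an unadjusted p under 0.05 the counts were 2 and 5, and DESeq2 called 1 and 0. On protein-coding models the midbrain call was another gene, Pold1, higher at 4 weeks by 2.84 ± 0.57 (adjusted p 0.0400). Midbrain against cortex gave no call at 2 weeks and in mock and 1 call, Rrm2, at 4 weeks, beside 2.94%, 2.19% and 7.99% of all genes (unadjusted counts 1, 1 and 6, DESeq2 calls 0, 0 and 1). The region difference of the response was called for none at 2 or 4 weeks, beside 0.685% and 2.55% of all genes (unadjusted counts 2 and 4, DESeq2 calls 0 and 0). Mock libraries of the same number deviated together in both regions, and the fit counts this as spread. The lack of calls in mock and in the region differences therefore does not show equal levels or responses. The median log2 difference of midbrain from cortex was 0.39 at 2 weeks, 0.04 at 4 weeks and -0.06 in mock over the 40 genes, and 0.02, -0.01 and 0.00 over all genes.

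Values of several genes moved with the choice of mock library. Without the mock library numbered 1 in both regions, an alternative chosen after the data were seen, 20 and 25 genes of the 37 tested were called lower in midbrain at 2 and 4 weeks and 22 and 25 in cortex, beside 20.9%, 24.6%, 23.0% and 24.5% of all genes. Without the mock library numbered 2 the counts were 24, 26, 31 and 29 of 40, beside 27.1%, 30.2%, 27.7% and 29.4%. With 1 mock library left in each region, the spread in these fits comes from the shPTB pairs alone, which lay closer together than the mock pairs. The lone mock library is assumed to vary as little as they did, and the values of single genes are given here without a test. Without library 1 the log2 fold changes were -1.32 to -1.94 for Pcna, -0.61 to -0.70 for Rfc2, -1.09 to -1.59 for Rfc5 and -1.24 to -1.59 for Rrm1. Without library 2 they were 0.34 to -0.35, -0.05 to -0.14, -0.00 to -0.24 and 0.01 to -0.59 in the same order. The counts above are of lower calls only, and not every gene lay below mock in these fits. Dbf4 in midbrain at 2 weeks was above mock, at 1.34 without library 1 and at 0.42 without library 2. Pcna in midbrain at 2 weeks was above mock without library 2, at 0.34.

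Other genes of the pathway were read from lists drawn up with earlier results of these data known. Of 32 tested replication factors outside the set, 9 and 17 were lower in midbrain at 2 and 4 weeks and 13 and 17 in cortex, and none was higher. Among all genes 14.7%, 20.4%, 17.6% and 20.9% were lower in the same order, and 15.9%, 18.7%, 17.5% and 18.5% higher. Timeless, of the fork protection complex, had, in midbrain, 2.17 and 2.79 CPM at 2 weeks and 0.414 and 0.743 CPM at 4 weeks, against 5.11 and 12.3 CPM in mock, and fell by 3.80 ± 0.59 there at 4 weeks and by 3.15 ± 0.59 in cortex. Asf1b, a histone chaperone, had, in cortex, 0.562 and 1.46 CPM at 2 weeks and 0.549 and 0.192 CPM at 4 weeks, against 6.91 and 8.75 CPM in mock, and fell by 3.03 ± 0.46 and 4.34 ± 0.54 in midbrain and cortex at 4 weeks. Chaf1b, of the chromatin assembly factor, fell by 3.51 ± 0.37 in cortex at 4 weeks, and Rnaseh2a, which removes ribonucleotides from DNA, by 2.75 ± 0.44 in midbrain (log2 scale, adjusted p at most 0.00171).

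Nucleotide supply genes outside the set went both ways, with 1, 3, 2 and 2 of 7 lower and 2 higher in each comparison. The shares of all genes were 14.7%, 20.4%, 17.6% and 20.9% lower and 15.9%, 18.7%, 17.5% and 18.5% higher. Dctd, deoxycytidylate deaminase, had, in midbrain, 11.8 and 12.9 CPM at 2 weeks and 18.6 and 22.0 CPM at 4 weeks, against 1.69 and 2.89 CPM in mock. Its cortex levels were 13.4 and 12.2 CPM at 2 weeks and 18.6 and 19.1 CPM at 4 weeks, against 2.15 and 2.72 CPM in mock. Every shPTB library was above mock, by 3.15 ± 0.27 and 2.95 ± 0.27 on the log2 scale at 4 weeks (adjusted p 8.30e-06 and 1.32e-05), and above mock by 2.305 and 1.88 when scaled to total reads. Tk2, the mitochondrial thymidine kinase, had, in midbrain, 145 and 143 CPM at 2 weeks and 203 and 188 CPM at 4 weeks, against 40.5 and 90.6 CPM in mock. In cortex Tk2 had 215 and 219.5 CPM at 2 weeks and 202 and 204 CPM at 4 weeks, against 53.3 and 96.6 CPM in mock. It rose by 1.58 ± 0.35 and 1.44 ± 0.35 at 4 weeks (adjusted p 0.00462 and 0.00701), which was not called in cortex at 4 weeks when scaled to total reads (0.41, adjusted p 0.153). The nucleoside transporter Slc29a1 fell by 2.11 ± 0.37 and 4.11 ± 0.51 at 4 weeks.

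Of 15 tested repair and mitochondrial DNA synthesis genes 0, 2, 0 and 1 were lower and 1, 4, 2 and 2 higher. For all genes the shares were 14.7%, 20.4%, 17.6% and 20.9% lower and 15.9%, 18.7%, 17.5% and 18.5% higher. Lig3, the ligase of mitochondria and base repair, had, in midbrain, 30.3 and 30.9 CPM at 2 weeks and 31.5 and 27.4 CPM at 4 weeks, against 12.5 and 17.6 CPM in mock, and was higher by 0.97 ± 0.22 at 4 weeks and by 1.17 ± 0.22 in cortex, where Lig1 fell. With a transcript length offset Lig3 turned to -0.69 in midbrain at 4 weeks and -0.56 in cortex, and scaled to total reads it was 0.12 and 0.11 and not called. Polb, the base repair polymerase, rose by 1.24 ± 0.27 in cortex at 4 weeks (0.11 and not called when scaled to total reads). Polk, a lesion bypass polymerase, was lower in both regions at 4 weeks (-1.18 ± 0.31 and -0.96 ± 0.34), and Rev3l in midbrain (-1.60 ± 0.45, but 0.25 on protein-coding models alone). The Rev3l call was lost without mock library 1 or without either midbrain library at 4 weeks (adjusted p 0.0863 to 0.0980).

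Among 17 tested E2F, pocket protein and DREAM genes 6, 8, 6 and 8 were lower and 2, 1, 2 and 2 higher. The corresponding shares of all genes were 14.7%, 20.4%, 17.6% and 20.9% lower and 15.9%, 18.7%, 17.5% and 18.5% higher. E2f2, an activator like E2f1, had, in midbrain, 1.36 and 0.552 CPM at 2 weeks and 0.138 and 0.134 CPM at 4 weeks, against 6.29 and 5.71 CPM in mock, and at 4 weeks was 44.3-fold lower than in mock (95% interval 12.1 to 368). Foxm1, which drives G2/M genes, fell by 2.90 ± 0.48 in midbrain and 3.37 ± 0.54 in cortex at 4 weeks, and Mybl2, the B-MYB factor, by 3.14 ± 0.38 in cortex. Rb1, the pocket protein that holds E2F in check, also fell, by 2.42 ± 0.39 and 1.87 ± 0.40 (adjusted p 0.000706 and 0.00360).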

How the data were processed

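RNA from astrocyte cultures was made into 12 libraries that were 3′-biased, per the labels' protocols. By these protocols cDNA was primed from the poly(A) end with a biotinylated primer and second strands from random primers. They describe no molecular identifiers. The authors quantified transcripts with Salmon 0.14.1 after cutadapt 2.3 on mouse build mm10, per the submitters' processing notes. The deposited files give estimated counts and TPM per transcript with the effective length, which is the transcript length less the fragment length. Which annotation release was used is not stated by these sources.

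Estimated counts were summed per gene and rounded to whole numbers. Transcript names of 140137 of 140658 entries matched the reference annotation, and the 521 others held 0.0547 to 0.129% of the reads. Of 54356 genes 14607 passed edgeR's filter (minimum count 10, total 15). edgeR 4.0.16 (R 4.3.3, limma 3.58.1) fitted all 12 libraries in 6 groups with trimmed-mean scaling, a common dispersion of 0.0550 and 6 residual degrees of freedom. Calls used an adjusted p under 0.05 from its quasi-likelihood test, with Benjamini-Hochberg adjustment over all tested genes of a comparison. For a group with 0 reads the fold is a bound, set with 3 reads in the whole group, and 1 to 3 reads give a ratio with its exact 95% interval. Intervals and bounds cover counting error only. The fit was tested on simulated data. Gene starts and ends are GRCm38 coordinates.

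The genes and all lists were chosen with earlier results of these data known. Values in every library were given for the gene with the highest mean CPM of each role, for genes called lower in at most 2 of the 4 comparisons with mock, and for calls in other comparisons, with further genes of the set as examples. Up to 3 called genes with the largest change at 4 weeks and at least 5 CPM in the higher group were named from each other list. Alternatives were other scalings, filters, a transcript length offset from TPM and effective length, DESeq2 1.42.0, a replicate block, single libraries left out and, added later, coding transcripts alone and 1 mock library left out of both regions. Shared 3′ words are 31-base words in the last 500 bases of a gene's longest transcript that occur in any other gene, on either strand. The gene named beside a share is the one with the most of these words.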

Additional observations from a re-analysis of the deposited data

How the results depend on the processing

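No call of the set against mock changed direction in the 23 alternatives. Of 85 such calls 43 were kept in every alternative in which the gene was tested, which for some genes was fewer than 23. A transcript length offset lost 21 calls and DESeq2 lost 11. On coding transcripts 60 were kept, 16 were lost and the rest were not tested. With the strict filter 61 were kept and the rest were not tested. Scaling to total reads called 35, 37, 36 and 38 genes lower in midbrain at 2 and 4 weeks and cortex at 2 and 4 weeks; it moves all genes down. Leaving out libraries gave 10 to 25, 16 to 26, 14 to 31 and 15 to 29 calls (to 27 in cortex at 4 weeks with single libraries left out, and higher without the same mock library in both regions, where the lone mock library is assumed to vary like the shPTB pairs). It gave 0 to 5 for midbrain at 4 against 2 weeks, 0 to 3 for cortex, 0 to 3 between regions at 2 and at 4 weeks, 0 to 1 in mock, and 0 to 2 and 0 to 1 for the region differences of the response at 2 and 4 weeks.

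With only the groups compared in the fit, fewer genes of the set were tested. Midbrain at 4 against 2 weeks then had 2 lower calls and 1 higher call of 21 tested, and cortex 1 and 1 of 20. Between regions 3 of 22 were called at 2 weeks, all higher in midbrain. At 4 weeks 1 was lower and 2 were higher in midbrain, of 20. Shares of all genes are not given for these fits. Total-read scaling and no filter each gave 1 for cortex at 4 against 2 weeks, 2 between regions at 4 weeks and 1 for the region difference at 4 weeks, and the length offset gave 0 between regions at 4 weeks. The replicate block gave 17, 23, 24 and 24 calls against mock, 1 and 0 between times, 0, 1 and 0 between regions at 2 weeks, 4 weeks and in mock, and 0 and 0 for the region differences. Same-numbered deviations correlated at 0.859 between the mock groups, whose numbers thus go together across regions, and at -0.099 to 0.089 in every other pair of groups, over 7551 genes, so the numbers do not pair shPTB with mock.

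Values that changed sign and were called before or after the change were Pcna in midbrain at 2 weeks (0.34 without mock library 2 in both regions, where only shPTB pairs give the spread), Timeless in midbrain at 2 weeks (0.30) and Lig3 in midbrain at 4 weeks (-0.69) and cortex at 2 and 4 weeks (-0.35 and -0.56) with the length offset, and, on coding transcripts, Rev3l in midbrain at 4 weeks (0.25) and Dbf4 in cortex at 2 weeks (-6.63, a fitted value against 0 reads and no size). Dbf4 in midbrain at 2 weeks, called in neither, was 0.80 on summed reads and -2.85 on coding transcripts. The cause was not tested. Depth limits the set: many of its genes had under 10 reads in shPTB groups.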
